A study of Glycine max with 12 samples.

Results

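The sugar exporter genes described here are the 4 soybean (Glycine max) genes listed as SWEET10a (Glyma.15G049200.Wm82.a4.v1), SWEET10b (Glyma.08G183500.Wm82.a4.v1), SWEET15a (Glyma.05G202600.Wm82.a4.v1) and SWEET15b (Glyma.08G009900.Wm82.a4.v1), chosen by identifier from the 47095 genes of the deposited table. All 4 identifiers are in the table. RNA was measured in seeds at a stage that the labels call H3, a term they do not explain, in 12 libraries of 4 genotypes with 3 libraries each. The GmZF351, GmZF392 and GmNFYA overexpressors are labelled transgenic soybean and the wild type is labelled Jack. The labels name no promoter, plant number or transgenic line, and the titles of each overexpressor's libraries share a code, so each overexpressor may be a single line. A line and its transgene then cannot be told apart, and p-values measure the spread between these libraries, which may be technical.

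SWEET proteins are membrane channels that let sugars move down their concentration gradient. In developing seeds, members of the sucrose-transporting branch are known to release sugar from the seed coat towards the embryo, which has no vascular link to the mother plant and takes the sugar up to make oil and protein. SWEET10a is known in soybean as a domestication gene for seed size, oil and protein, and SWEET10b as its close paralog. GmZF351, GmZF392 and GmNFYA are known as transcriptional regulators of seed oil, which depends on the sugar supply.

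SWEET10b ranked 59 and SWEET10a ranked 754 of 34252 tested genes by level, and the SWEET15 genes as listed here had almost no counted fragments. SWEET10b was the highest and SWEET10a the second highest of the 36 genes with a RefSeq SWEET symbol in each of the 12 libraries. Neither SWEET10 gene passed the test in any comparison of genotypes. The balance of the pair differed among the 4 genotypes in an exact permutation test (p = 0.00377). The share of SWEET10a was larger in the GmZF351 and GmZF392 overexpressors than in the GmNFYA overexpressor and the wild type. Between single genotypes the exact p cannot go below 0.1 with 3 libraries each, so no pair of genotypes could pass. The lowest exact p adjusted over 6 pairs was 0.15. How often the ratios of other gene pairs separate in this way was not tested. Against the name of seed-filling exporters, Glyma.05G202600 and Glyma.08G009900 had almost no counted fragments in these seeds. Whether these are the loci published under the names SWEET15a and SWEET15b was not checked, and Glyma.06G166800, which carries the RefSeq symbol SWEET15, was expressed, so the near absence is stated of the listed identifiers alone.

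Gene symbols were taken from RefSeq (Glycine_max_v4.0) by position, and they number this family differently. RefSeq gives SWEET10a the symbol SWEET39, SWEET10b the symbol SWEET24 and SWEET15b the symbol SWEET20, while the gene at SWEET15a has only a locus number. The RefSeq symbols SWEET10 and SWEET15 belong to other loci, Glyma.05G122200 and Glyma.06G166800. Below, names with a final a or b are the 4 genes of interest and all other SWEET names are RefSeq symbols.

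In the Wm82.a4.v1 annotation of the deposited table, SWEET10a lies on chromosome 15 at 3861273 to 3863135 on the minus strand, with 6 exons that sum to 1149 bases. SWEET10b lies on chromosome 8 at 14806104 to 14808441 on the plus strand, with 6 exons and 1373 bases of exon. SWEET15a lies on chromosome 5 at 38618752 to 38621477 on the plus strand, with 5 exons and 1695 bases. SWEET15b lies on chromosome 8 at 774563 to 777046 on the plus strand, with 6 exons and 1257 bases. No other gene of the table overlaps any of them, so their exons share no position with a neighbour.

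Libraries held 17809547 to 22652420 counted fragments. Expression is given as CPM, the counts relative to the TMM-scaled library total, and levels of different genes are compared as CPM per kb of exon. The overexpressed gene checked the labels: GmZF351 was 50.1-fold, GmZF392 9.21-fold and GmNFYA 7.37-fold over the wild type in its own overexpressor. The GmZF351 transcript was also 2.1-fold over the wild type in the GmZF392 overexpressor and 1.44-fold in the GmNFYA overexpressor. GmZF392 was 1.22-fold in the GmZF351 and 1.32-fold in the GmNFYA overexpressor. GmNFYA was 0.98-fold in the GmZF351 and 1.09-fold in the GmZF392 overexpressor. Embryo marker genes summed to 3508 to 3748 CPM in seeds of the GmZF351 overexpressor, 4447 to 4706 CPM in the GmZF392 overexpressor, 3314 to 3456 CPM in the GmNFYA overexpressor and 1571 to 1716 CPM in the wild type (8 of 10 listed genes found). Of these 8, 5 rose in the GmZF351, 6 in the GmZF392 and 5 in the GmNFYA overexpressor. The seed protein genes GY1, GY2, GY4, CG-1 and P34 rose in all 3 overexpressors, and LE1 rose in the GmZF392 overexpressor. CG-1 alone averaged 1740, 2335 and 1756 CPM in the overexpressors in that order, against 591 CPM in the wild type. LEC1-A and LEC1-B were called in no overexpressor (edgeR adjusted p at least 0.535). Seed coat marker genes, of which 6 of 8 were found and 5 tested, summed to 986 to 1063 CPM in the GmZF351, 1176 to 1350.0 CPM in the GmZF392 and 1206 to 1236 CPM in the GmNFYA overexpressor, and to 1268 to 1457 CPM in the wild type. LAR1, which encodes a leucoanthocyanidin reductase of seed coat tannin synthesis, fell in all 3 overexpressors. HPS, which encodes the hydrophobic protein of the seed surface, fell in the GmZF351 overexpressor. In the GmZF392 and GmNFYA overexpressors HPS had higher means, 302 and 369.5 CPM against 203 CPM in the wild type, and was not called (edgeR adjusted p = 0.278 and 0.0769). ANR1, DFR1 and DFR2 were called in no overexpressor. The 3 leaf photosynthesis genes found of 4 listed summed to 1142 to 1743 CPM in the overexpressor libraries and 1641 to 2021 CPM in the wild type, and none passed. In bulk seed RNA, fewer cells of a type and less RNA per cell cannot be told apart. No marker was at 0 in all libraries of a genotype, and the part that tissue proportions play in the SWEET values was not tested.

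SWEET10b was represented by 177136 fragments over the 12 libraries, from 12274 to 18260 per library. Its level averaged 555 ± 78.7 CPM per kb (SD, n = 12), which ranked 59 of 34252 tested genes, with 99.8% of them lower. By genotype its rank was 60 in the GmZF351, 64 in the GmZF392 and 51 in the GmNFYA overexpressor and 58 in the wild type. SWEET10a was represented by 37349 fragments, from 2374 to 3736 per library, and averaged 140.0 ± 24.2 CPM per kb, rank 754, with 97.8% of tested genes lower. Its rank was 718, 651 and 795 in the GmZF351, GmZF392 and GmNFYA overexpressors and 880 in the wild type.

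SWEET10b stood at 725, 1042 and 708 CPM in seeds of the GmZF351 overexpressor, 733, 650.1 and 745 CPM in the GmZF392 overexpressor, 658, 782 and 834 CPM in the GmNFYA overexpressor, and 656, 826 and 786 CPM in the wild type. All 4 ranges overlapped, and the single highest value belonged to library 2 of the GmZF351 overexpressor. The TMM scaling factor of that library, 0.8845, was the lowest of all libraries, and a low factor raises CPM. SWEET10a stood at 169.7, 225 and 167 CPM in seeds of the GmZF351 overexpressor, 179, 147 and 182 CPM in the GmZF392 overexpressor, 128, 149 and 153 CPM in the GmNFYA overexpressor, and 116, 164 and 151 CPM in the wild type. For this gene the GmZF351 overexpressor libraries all lay above those of the GmNFYA overexpressor and the wild type, and its library 2 was again the highest. The GmZF392 overexpressor overlapped each of the other 3 groups, and the GmNFYA overexpressor overlapped the wild type.

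**Figure D1:**
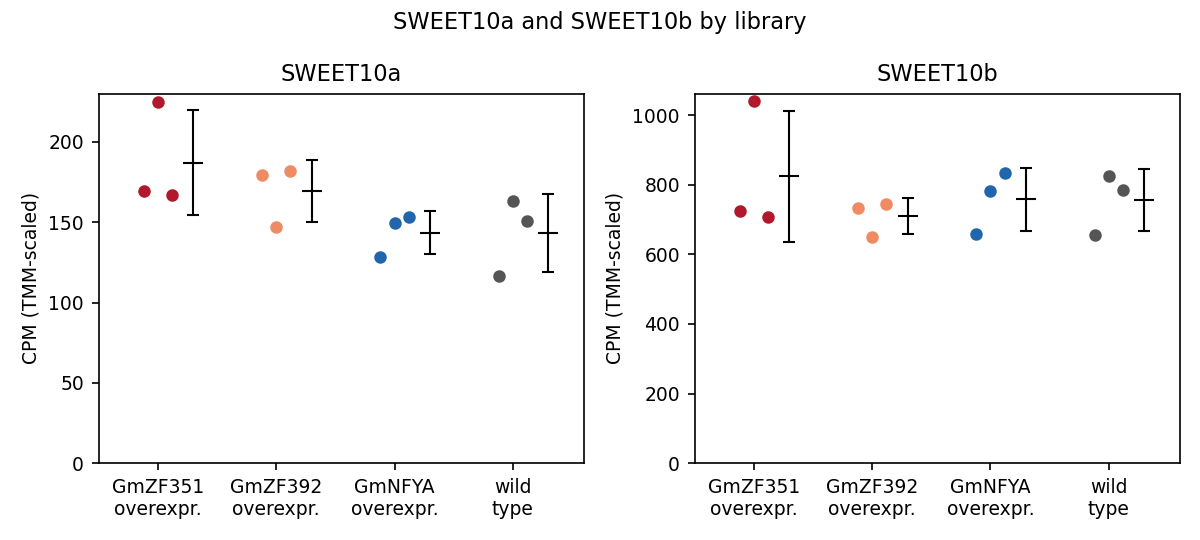
CPM of SWEET10a (left) and SWEET10b (right) in each library (points, replicates 1 to 3 from left to right) with the mean and SD of 3 libraries (bars), by genotype. SWEET10a was between 116 and 225 CPM and SWEET10b between 650.1 and 1042 CPM, and library 2 of the GmZF351 overexpressor was the highest for both.

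Neither gene was called in any of the 6 pairwise comparisons (edgeR quasi-likelihood F-test, Benjamini-Hochberg adjusted p under 0.05 over 34252 genes). For SWEET10a the mean was 187 ± 32.7 CPM in seeds of the GmZF351 overexpressor, 169.6 ± 19.4 CPM in the GmZF392 overexpressor, 143 ± 13.5 CPM in the GmNFYA overexpressor and 143 ± 24.4 CPM in the wild type (SD, n = 3 each). Its largest difference from the wild type was in the GmZF351 overexpressor, 1.30-fold (log2 0.38, SE 0.17, 95% interval 0.01 to 0.76, edgeR adjusted p = 0.41). The share of all tested genes called in that comparison was 2.17%. Against the wild type the log2 fold change of SWEET10a was 0.24 in the GmZF392 overexpressor (interval -0.13 to 0.62, edgeR adjusted p = 0.652, 2.2% of genes called) and 0.0005 in the GmNFYA overexpressor (interval -0.37 to 0.38, adjusted p = 1.0, 1.56% of genes called). The libraries of the GmZF351 overexpressor and the wild type did not overlap for SWEET10a, as was the case for 16.5% of tested genes.

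Between overexpressors, SWEET10a differed by log2 -0.38 (SE 0.17, edgeR adjusted p = 0.385) in GmNFYA over GmZF351, where the libraries did not overlap and 1.1% of genes were called. Non-overlap in that comparison held for 17.9% of genes. The difference was log2 -0.24 (adjusted p = 0.696) in GmNFYA over GmZF392, where 1.06% of genes were called, and log2 -0.14 (adjusted p = 0.82) in GmZF392 over GmZF351, where 0.4% were called. The unadjusted p of SWEET10a was 0.047 in both the GmZF351 over wild type and the GmNFYA over GmZF351 comparison, and no DESeq2 test called the gene. In the order of its levels, from GmZF351 and GmZF392 down to GmNFYA and the wild type, no neighbours differed beyond their spread.

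SWEET10b averaged 825 ± 188 CPM in seeds of the GmZF351 overexpressor, 709.6 ± 51.9 CPM in the GmZF392 overexpressor, 758 ± 90.1 CPM in the GmNFYA overexpressor and 756 ± 88.9 CPM in the wild type. The log2 fold change over the wild type was 0.12 in the GmZF351 overexpressor (SE 0.18, interval -0.26 to 0.51, edgeR adjusted p = 0.882). In the GmZF392 overexpressor it was -0.09 (interval -0.48 to 0.30, adjusted p = 0.896), and in the GmNFYA overexpressor 0.0027 (interval -0.39 to 0.39, adjusted p = 0.997). These intervals leave room for changes up to 1.43-fold in the GmZF351 overexpressor and down to 0.717-fold in the GmZF392 overexpressor. Between overexpressors the log2 differences were -0.22, -0.12 and 0.09 for GmZF392 over GmZF351, GmNFYA over GmZF351 and GmNFYA over GmZF392 (edgeR adjusted p = 0.719, 0.794 and 0.905). The lowest unadjusted p of SWEET10b was 0.25, and no DESeq2 test called it.

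A test over all 4 genotypes at once called neither SWEET10a (edgeR adjusted p = 0.467) nor SWEET10b (adjusted p = 0.843), against 3.36% of all tested genes. From its lowest to its highest library SWEET10a varied 1.93-fold and SWEET10b 1.60-fold. The SD of log2 CPM over the 12 libraries was 0.25 for SWEET10a and 0.19 for SWEET10b, and 37.9% and 20.5% of tested genes varied less.

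The balance within the pair was taken as the share of SWEET10a in the summed CPM per kb of SWEET10a and SWEET10b, which needs no scaling between libraries. This share was 21.9%, 20.5% and 22.0% in the GmZF351 overexpressor, 22.6%, 21.3% and 22.6% in the GmZF392 overexpressor, 18.9%, 18.6% and 18.02% in the GmNFYA overexpressor, and 17.5%, 19.1% and 18.6% in the wild type. All 6 libraries of the zinc finger overexpressors lay above all 6 libraries of the GmNFYA overexpressor and the wild type. How often the ratios of other gene pairs separate in this way was not tested. Group means were 21.5 ± 0.82%, 22.2 ± 0.75% and 18.5 ± 0.43% in the GmZF351, GmZF392 and GmNFYA overexpressors and 18.4 ± 0.84% in the wild type (SD, n = 3 each).

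The log2 ratio of SWEET10a to SWEET10b differed among the 4 genotypes in an exact permutation test (F = 21.3, p = 0.00377 over all 369600 assignments of 12 libraries to 4 groups of 3). The ratio was 1.21-fold higher in the GmZF351 overexpressor (log2 0.28) and 1.26-fold higher in the GmZF392 overexpressor (log2 0.34) than in the wild type, and 1.01-fold of the wild type in the GmNFYA overexpressor (log2 0.01). In the GmNFYA overexpressor the ratio differed from that of GmZF351 by log2 -0.27 and from that of GmZF392 by log2 -0.33. The zinc finger overexpressors differed from each other by log2 0.06, with GmZF392 higher. With 3 libraries against 3 the smallest p an exact permutation test can give is 0.1, and the 4 pairs that did not overlap all reached it (two-sided, adjusted over 6 pairs p = 0.15). The exact p was 0.9 for GmNFYA against the wild type (adjusted 0.9) and 0.3 for GmZF392 against GmZF351 (adjusted 0.36). Of 3 ratios planned among the 4 genes, this is the 1 that could be formed.

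The counting command names no option for fragments that align to several places. How fragments shared by these close paralogs were counted therefore rests on the defaults of the tool, and the effect on the ratio was not tested. Depth limits the ratio little, since the smaller count of the pair was at least 2374 in each library. The embryo marker sums given above were higher in each overexpressor than in the wild type. Seed coat marker sums of the GmZF392 overexpressor and the wild type overlapped, and those of the GmZF351 overexpressor were the lowest. The sums themselves were not tested, and neither was their part in the ratio.

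**Figure D2:**
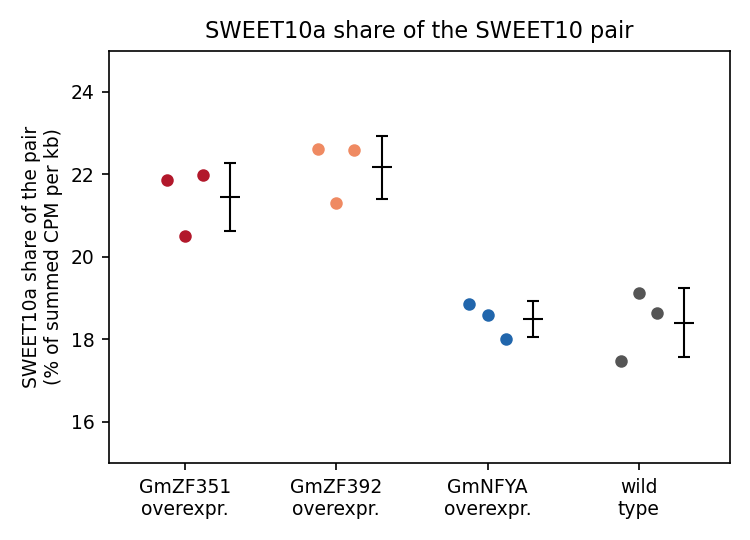
Share of SWEET10a in the summed CPM per kb of SWEET10a and SWEET10b (percent, vertical axis from 15 to 25) in each library (points, replicates 1 to 3 from left to right), with the mean and SD of 3 libraries. The GmZF351 and GmZF392 overexpressor libraries lie between 20.5% and 22.6%, above the 17.5% to 19.1% of the GmNFYA overexpressor and wild-type libraries.

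Across the 12 libraries SWEET10a and SWEET10b followed each other with a Pearson r of 0.727 of their log2 CPM, given as a description because the libraries share genotypes and scaling. Among 23820 genes with a mean of at least 5 CPM, SWEET10b ranked 1067 by this likeness to SWEET10a. The symbol-bearing genes most like SWEET10a were MYB68, a MYB transcription factor gene (r = 0.933), GA2OX8, named for a gibberellin oxidase (r = 0.921), and ALDH2C7, named for an aldehyde dehydrogenase (r = 0.917). Those most like SWEET10b were ITPK2, named for an inositol phosphate kinase (r = 0.940), CHI4A, named for a chalcone isomerase (r = 0.940), and HSP90-1, a chaperone gene (r = 0.937).

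SWEET15a had 0 counts in all 12 libraries. The upper limit of such a 0 was set at 3 counts, or 0.136 to 0.18 CPM in a single library and 0.0129 unscaled CPM over the 233265173 fragments of all libraries; this limit and the interval below cover counting error only. SWEET15b had 2 fragments in library 1 of the GmNFYA overexpressor, or 0.102 CPM (exact Poisson 95% interval 0.0124 to 0.37 CPM), and 0 in the other 11 libraries. Neither gene passed the filter on low counts, and neither was tested. How fragments that align to several places were counted rests on the defaults of the tool here too. The effect on these low counts was not tested. In the table, 5250 genes (11.1%) had 2 or fewer counts over all libraries, and 3687 (7.8%) had 0 throughout.

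Per kb and against that limit in each library, SWEET10b was at least 5051-fold to at least 7514-fold higher than SWEET15a. SWEET10a was at least 1167-fold to at least 1837-fold higher than SWEET15a. No change of either SWEET15 gene between genotypes was detectable at this depth, and a ratio within the SWEET15 pair or between the SWEET10 and SWEET15 pairs would rest on the added pseudocount alone. The gene with the RefSeq symbol SWEET15, Glyma.06G166800, was expressed at 22.1 ± 3.24 CPM in the GmZF351, 18.3 ± 0.362 CPM in the GmZF392 and 10.6 ± 0.901 CPM in the GmNFYA overexpressor, and at 20.1 ± 0.686 CPM in the wild type.

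Each of the SWEET15 genes, at or near 0 counts, lay beside an expressed SWEET gene, a pattern that was chosen for description after the values were seen. SWEET11 (Glyma.05G202700) is the next gene after SWEET15a, 9484 bases away on the same strand, at 38630962 to 38633524 on chromosome 5. SWEET21 (Glyma.08G010000) is the next gene after SWEET15b, 7327 bases away on the same strand, at 784374 to 787011 on chromosome 8. Over the 12 libraries SWEET11 had 12281 fragments and SWEET21 had 11904. Per kb, SWEET11 was at least 196-fold to at least 614-fold higher than SWEET15a in the same library, and SWEET21 was at least 85.4-fold to at least 431-fold higher than SWEET15b in the 11 libraries where SWEET15b was at 0, with the limit of 3 counts used for both. In the library with 2 SWEET15b fragments the ratio of SWEET21 to SWEET15b was 124 (95% counting interval 34.2 to 1021).

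SWEET11 stood at 60.1, 84.3 and 68.5 CPM in seeds of the GmZF351 overexpressor, 52.1, 54.5 and 64.2 CPM in the GmZF392 overexpressor, 23.1, 24.3 and 22.7 CPM in the GmNFYA overexpressor, and 61.2, 63.8 and 57.0 CPM in the wild type. SWEET21 stood at 62.5, 68.6 and 73.9 CPM in seeds of the GmZF351 overexpressor, 51.3, 54.1 and 65.4 CPM in the GmZF392 overexpressor, 14.5, 17.4 and 14.6 CPM in the GmNFYA overexpressor, and 59.9, 66.9 and 65.3 CPM in the wild type. For both genes the GmNFYA overexpressor libraries lay below all others, and the other 3 genotypes overlapped. Between GmNFYA and the wild type 21.9% of tested genes did not overlap, as did 17.9% between GmNFYA and GmZF351 and 17.5% between GmNFYA and GmZF392.

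SWEET11 fell 2.60-fold in the GmNFYA overexpressor relative to the wild type (log2 -1.38, SE 0.14, edgeR adjusted p = 0.000124), and SWEET21 fell 4.13-fold (log2 -2.05, SE 0.14, edgeR adjusted p = 2.59e-06). Set directly against GmZF351, the GmNFYA overexpressor was lower by log2 -1.60 for SWEET11 and log2 -2.14 for SWEET21. Against GmZF392 the differences were log2 -1.28 and -1.88 (edgeR adjusted p at most 0.000319 in these 4 tests). Neither gene was called in the GmZF351 overexpressor (log2 0.23 and 0.09, adjusted p = 0.607 and 0.88) or the GmZF392 overexpressor (log2 -0.09 and -0.17, adjusted p = 0.861 and 0.685) against the wild type. The SWEET10 pair, by contrast, had log2 fold changes of 0.0005 and 0.0027 in that genotype, where the interval of SWEET10a was -0.37 to 0.38; the difference between genes was not tested.

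**Figure D3:**
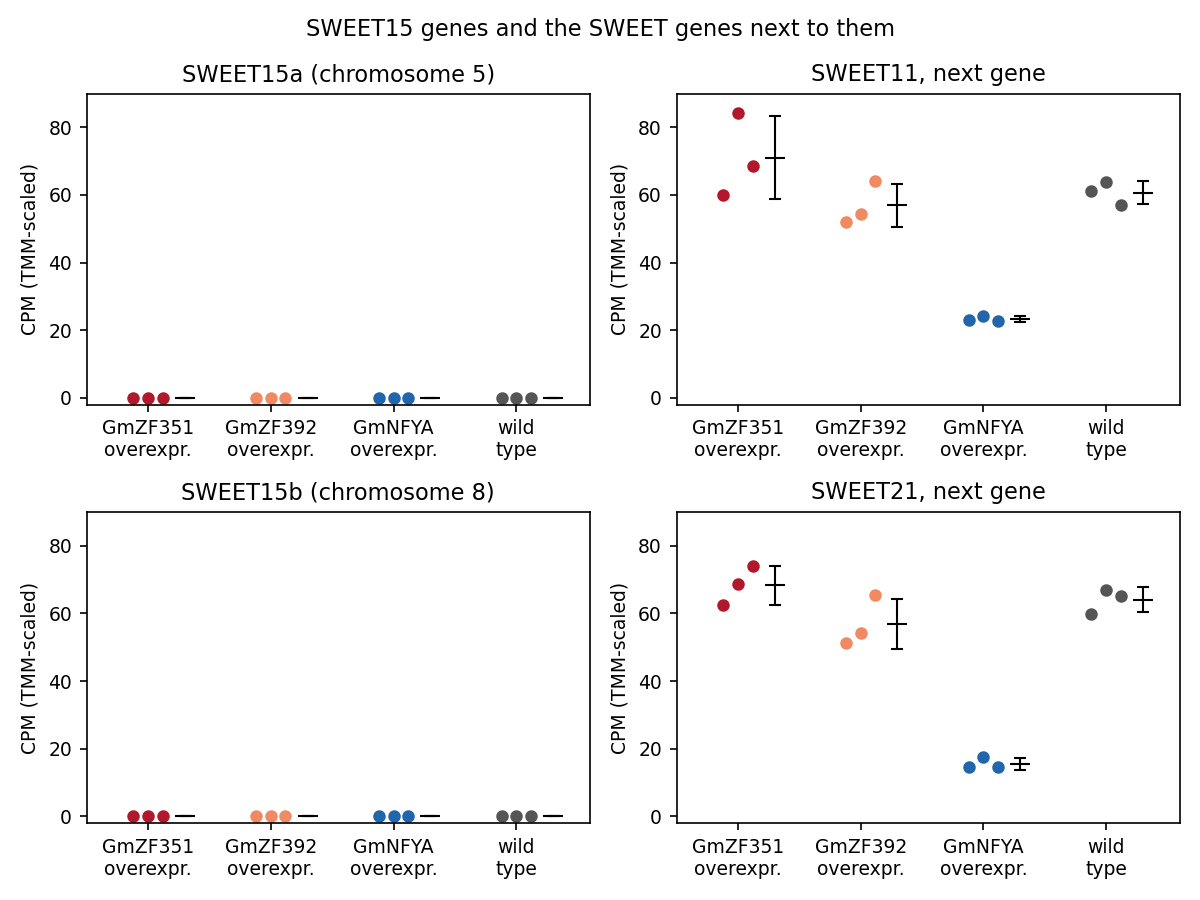
CPM of SWEET15a and SWEET15b (left) and of the next gene on the same strand, SWEET11 and SWEET21 (right), in each library (points, replicates 1 to 3 from left to right) with the mean and SD of 3 libraries. The SWEET15 genes lie at or near 0 in every genotype, and SWEET11 and SWEET21 lie at 14.5 to 24.3 CPM in the GmNFYA overexpressor, below all other libraries.

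Of the 43 RefSeq SWEET symbols 36 were found in the table, and other genes of the family were not looked up apart from SWEET15a. Of the 36, 24 were tested. The 12 that were not tested had at most 38 fragments each over the 12 libraries, and 4 of them had 0 throughout; SWEET15a carries no SWEET symbol and is not among the 36. SWEET10b took 56.0% to 66.0% and SWEET10a 11.9% to 17.2% of the summed CPM per kb of these genes, and together they took 68.1% to 80.5%, depending on the library. The next gene by mean level was SWEET11 in the GmZF351 and GmZF392 overexpressors and in the wild type, at 54.7, 43.9 and 46.8 CPM per kb. In the GmNFYA overexpressor it was SWEET5 at 33.4 CPM per kb, where SWEET11 stood at 18.02. SWEET10b was 10.98-fold, 11.8-fold and 16.5-fold above that next gene in the GmZF351, GmZF392 and GmNFYA overexpressors and 11.8-fold in the wild type, and SWEET10a was 2.98-fold, 3.36-fold, 3.74-fold and 2.67-fold above it.

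**Figure D4:**
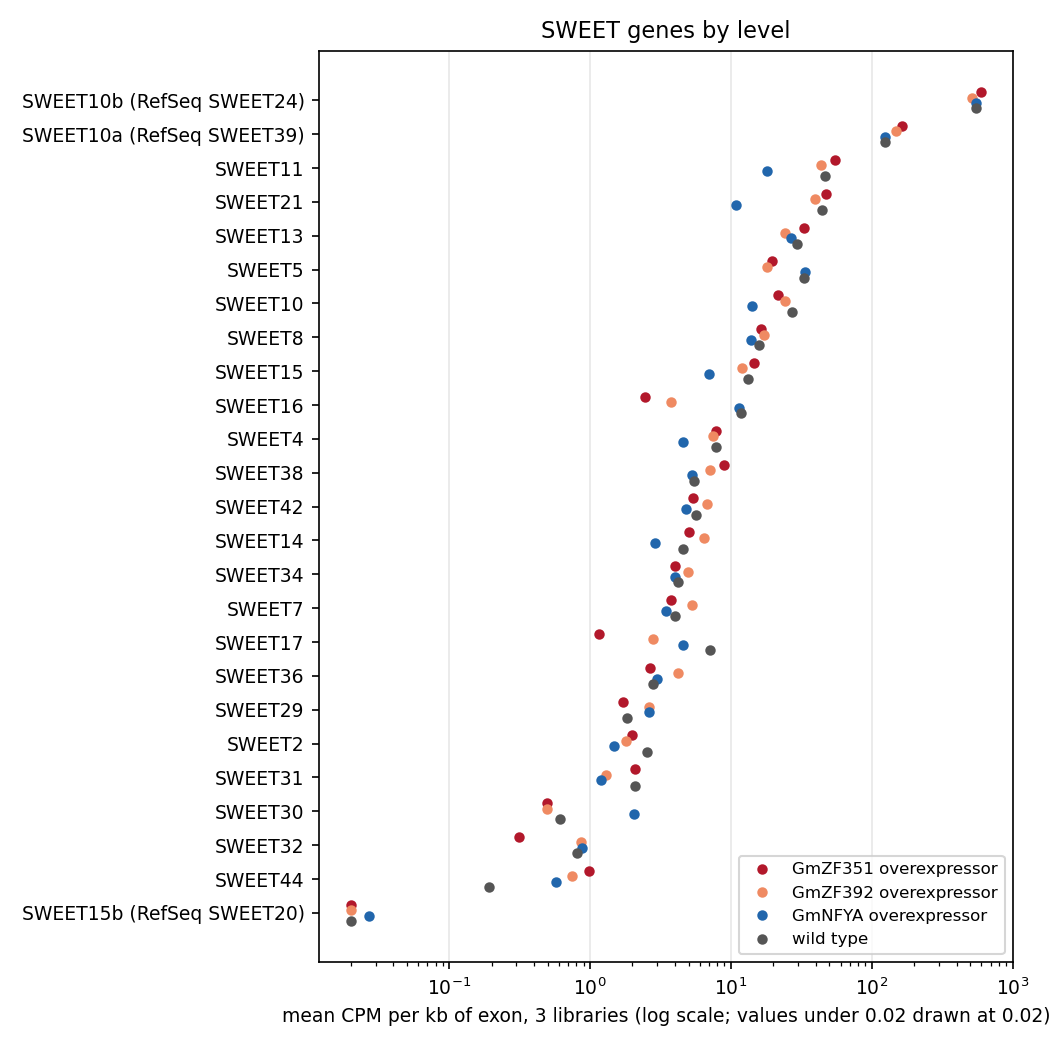
Mean CPM per kb of exon (log axis, n = 3 libraries per point) of the 24 tested SWEET genes and SWEET15b in the 4 genotypes, ordered by level. SWEET10b at 517 to 601 and SWEET10a at 125 to 163 CPM per kb stand above SWEET11 and SWEET21, and SWEET15b is at the bottom, with means of 0 drawn at 0.02.

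Neither SWEET10 gene was called in any comparison of genotypes. Of the 24 tested SWEET genes, 9 (37.5%) passed in at least 1 overexpressor against the wild type, where the share of all tested genes was 3.81%. In the GmZF351 overexpressor 1 of the 24 rose and 3 fell, where 1.13% of all genes rose and 1.05% fell. In the GmZF392 overexpressor none rose and 3 fell (edgeR; 1.67% of all genes rose and 0.528% fell), and in the GmNFYA overexpressor none rose and 5 fell (0.966% of all genes rose and 0.599% fell). The median log2 fold change of the 24 was -0.04, -0.08 and -0.16 in these comparisons, and that of all tested genes was 0.01, -0.01 and -0.01. The 3 comparisons share the wild-type libraries.

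SWEET16 and SWEET17, which are adjacent in gene number to SWEET15 on chromosome 6, fell in both zinc finger overexpressors. SWEET16 averaged 3.28 ± 0.442 CPM in the GmZF351, 4.96 ± 0.543 CPM in the GmZF392 and 15.3 ± 0.88 CPM in the GmNFYA overexpressor, and 15.7 ± 2.82 CPM in the wild type. SWEET17 averaged 1.56 ± 0.321 CPM in the GmZF351, 3.79 ± 0.42 CPM in the GmZF392 and 6.08 ± 0.755 CPM in the GmNFYA overexpressor, and 9.5 ± 0.832 CPM in the wild type. SWEET5 fell in the same 2 genotypes, to 27.6 ± 3.14 and 25.2 ± 4.13 CPM, against 46.5 ± 2.38 CPM in the wild type. The GmZF351 call of SWEET5 (log2 -0.75, edgeR adjusted p = 0.019) was lost without library 1 or 3 of the overexpressor (0.0539 and 0.115) or library 2 or 3 of the wild type (0.087 and 0.0773).

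In the GmNFYA overexpressor SWEET15 fell 1.89-fold (log2 -0.92, SE 0.13, edgeR adjusted p = 0.00193), beside SWEET11 and SWEET21. SWEET10 (Glyma.05G122200, not SWEET10a or SWEET10b) averaged 17.3 ± 1.63 CPM in that genotype, against 33.1 ± 3.97 CPM in the wild type (log2 -0.94, edgeR adjusted p = 0.0346). That call was lost without any single library of the GmNFYA overexpressor (0.129, 0.158 and 0.082) or the wild type (0.123, 0.149 and 0.056). SWEET4, which was named after its value was seen, also fell in GmNFYA (log2 -0.79, edgeR adjusted p = 0.0497). The SWEET4 call was lost without any single library of the GmNFYA overexpressor (0.172, 0.14 and 0.176), without library 2 or 3 of the wild type (0.22 and 0.169), with DESeq2 size factors (0.0511), with no filter on low counts (0.0519) and with only the libraries compared (0.0578). SWEET44 was the one SWEET gene called higher than the wild type, with 1.26 ± 0.629 CPM in seeds overexpressing GmZF351, against 0.243 ± 0.109 CPM in the wild type (log2 2.31, SE 0.47, edgeR adjusted p = 0.0191). This call was lost without library 2 of the GmZF351 overexpressor (0.0818) or library 1 or 3 of the wild type (0.0916 and 0.0867), and with only the libraries compared (0.0925). The wild-type libraries held only 3, 8 and 4 fragments of SWEET44. Its means were also higher in the GmZF392 (log2 1.91, edgeR adjusted p = 0.0602) and GmNFYA overexpressors (log2 1.55, edgeR adjusted p = 0.183), without a call.

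**Figure D5:**
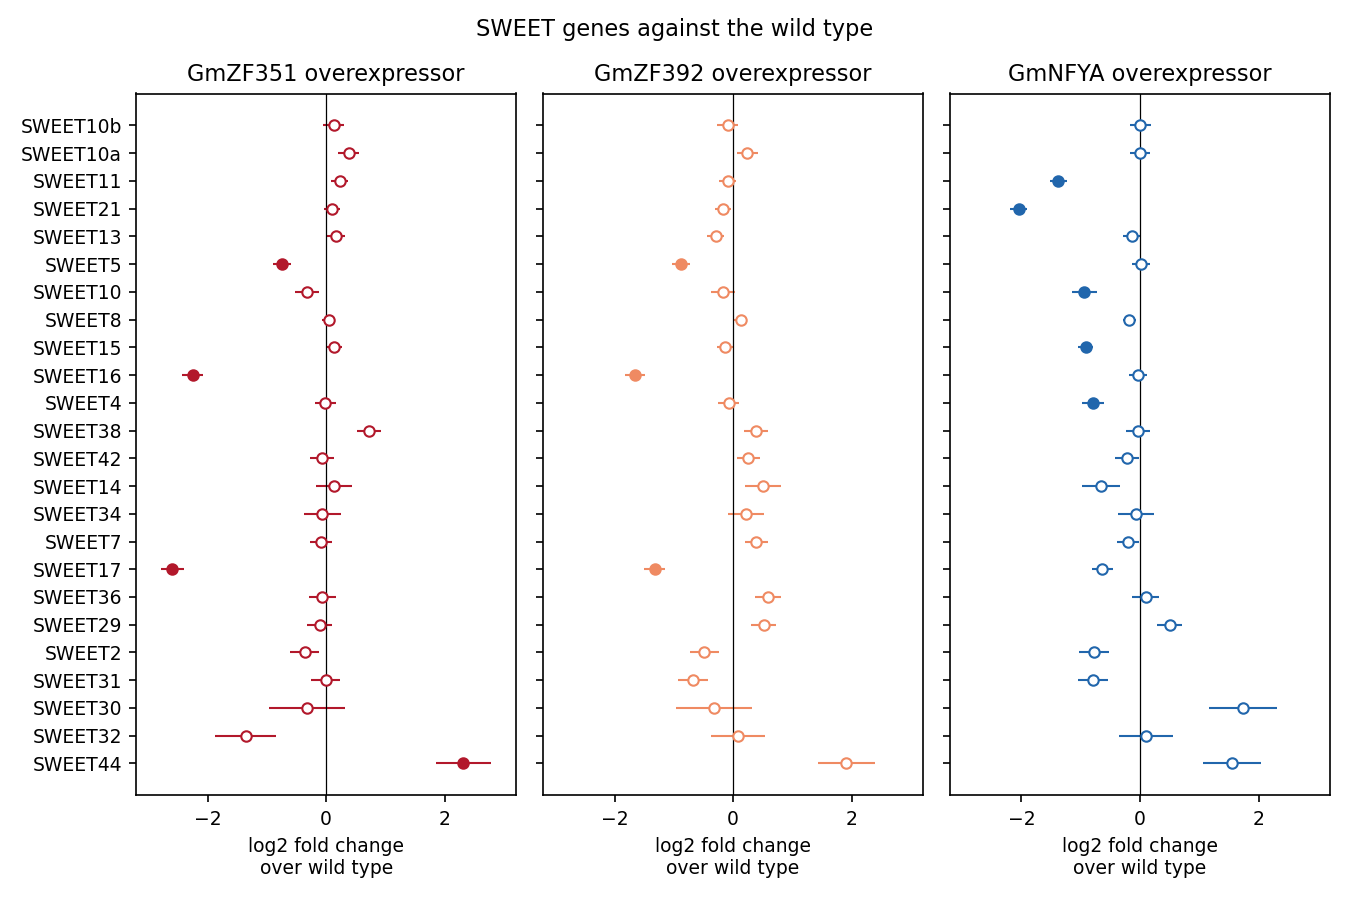
Log2 fold change over the wild type with its standard error (horizontal bars) of the 24 tested SWEET genes in each overexpressor, ordered by level; filled points have an edgeR adjusted p under 0.05. SWEET10a and SWEET10b are open in all 3 panels, and 4, 3 and 5 genes are filled in the GmZF351, GmZF392 and GmNFYA panels.

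Other genes of sugar delivery were looked up by symbol, and each list held 1 gene, so these are single genes and not pathways. SUT1, a sucrose importer gene, averaged 18.2 ± 2.98 CPM in the GmZF351, 17.6 ± 5.6 CPM in the GmZF392 and 15.8 ± 0.41 CPM in the GmNFYA overexpressor, and 11.4 ± 2.56 CPM in the wild type, and was not called (edgeR adjusted p = 0.204, 0.255 and 0.462). SS, a sucrose synthase gene, averaged 733 ± 48.6, 812 ± 40.9 and 759 ± 60.8 CPM in the overexpressors in that order and 734 ± 11.3 CPM in the wild type (adjusted p = 0.998, 0.744 and 0.906). SBP2, a sucrose binding protein gene, rose 2.36-fold in the GmZF392 overexpressor, with 3.97 ± 1.05 CPM against 1.66 ± 0.587 CPM in the wild type (log2 1.24, SE 0.28, edgeR adjusted p = 0.0347).

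The SBP2 call was lost without library 2 or 3 of the GmZF392 overexpressor (0.0949 and 0.131), without library 1 or 3 of the wild type (0.0943 and 0.145) and with only the libraries compared (0.0888). STP1 was not called against the wild type (adjusted p = 0.905, 0.0927 and 0.671) and differed between GmNFYA and GmZF392 by log2 -0.69 (edgeR adjusted p = 0.0304), a call lost without any library of the GmNFYA overexpressor (0.112, 0.0978 and 0.145) or without library 1 or 2 of the GmZF392 overexpressor (0.142 and 0.146), and with only the libraries compared (0.109). CWINV, a cell wall invertase gene, had at most 7 fragments in a library and was not tested. None of these genes was called in all 3 overexpressors against the wild type.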

How the data were processed

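The authors counted paired fragments over exons with featureCounts 2.0.1 and the annotation Wm82.a4.v1, per the file headers; the deposited values are unnormalized counts, with each gene's exon length, and strand and multimapping options are not named. HISAT2 and DESeq2 are further tools in the submitters' processing notes. The 47095 genes were paired with RefSeq genes by a span overlap of at least 50% of the union (38292 paired, 81.3%; 2205 with a symbol). Counts were tested with edgeR 4.0.16 in R 4.3.3 (TMM, filterByExpr with a minimum count of 10 and total of 15, robust quasi-likelihood F-test, 12 libraries in 1 fit, Benjamini-Hochberg threshold 0.05). The ratio used a pseudocount of 0.5 and an exact permutation test. DESeq2 1.42.0, other scalings and left-out libraries were alternatives. On simulated counts for the GmZF351 and wild-type comparison (33887 genes), the test recovered 42 of 100 with a true 2-fold change and 90 of 100 with a 4-fold one, and 8 of 140 called were unchanged. Members, lists and tests were chosen with earlier results of these data known. Named were the 4 genes, at most 8 called SWEET genes by adjusted p, at most 3 genes per sugar list and 3 most similar genes per member; CWINV, whose symbol carries no number, and SWEET4 were added after symbols or values were seen. Seed coat (ANR1, ANR2, LAR1, HPS, DFR1, DFR2), embryo and leaf photosynthesis markers were listed by symbol; there was no endosperm list. The replicates differed by more than counting noise (chi-square per gene 2.26 to 42.2), so none was merged.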

Additional observations from a re-analysis of the deposited data

Results flagged for a closer look

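These results stood out because the genotypes differed from each other when set directly against each other in the edgeR fit (adjusted p under 0.05), and not because 1 of them passed against the wild type and another did not. None of them concerns SWEET10a or SWEET10b. SWEET21 and SWEET11, the genes next to SWEET15b and SWEET15a, were lower in the GmNFYA overexpressor than in the GmZF351 overexpressor (log2 -2.14 and -1.60) and than in the GmZF392 overexpressor (log2 -1.88 and -1.28). SWEET15 (Glyma.06G166800) was lower too, by log2 -1.05 against GmZF351 and log2 -0.78 against GmZF392; without library 2 of the GmNFYA overexpressor the edgeR adjusted p of the second difference was 0.0699.

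SWEET16 was higher in the GmNFYA overexpressor than in GmZF351 (log2 2.22) and GmZF392 (log2 1.62). SWEET17 was higher in GmNFYA than in GmZF351 (log2 1.95) and higher in GmZF392 than in GmZF351 (log2 1.27); the last call was lost without library 3 of GmZF351 (0.0846), without library 1 or 2 of GmZF392 (0.0652 and 0.0512) and with only the libraries compared (0.184). SWEET5 was higher in GmNFYA than in GmZF351 (log2 0.76) and GmZF392 (log2 0.90). The first of these was lost without library 2 or 3 of GmNFYA (0.141 and 0.11), without library 1 or 3 of GmZF351 (0.0629 and 0.149) and with only the libraries compared (0.143). The second was lost without library 2 of GmNFYA (0.0597) or library 1 or 2 of GmZF392 (0.0577 and 0.0588).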

How the results depend on the processing

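SWEET10a and SWEET10b were called in none of the alternatives, and 169 of their recomputed values kept their sign and side of the threshold. Another 9 changed sign when 1 library was left out, around differences near 0. Over the left-out libraries, the log2 fold change of SWEET10a ranged from -0.13 to 0.11 for GmNFYA over wild type and from -0.22 to 0.011 for GmZF392 over GmZF351. That of SWEET10b ranged from -0.22 to 0.077 for GmNFYA over GmZF351, from -0.090 to 0.10 for GmNFYA over wild type and from -0.072 to 0.23 for GmZF351 over wild type, with the lowest value without GmZF351 library 2. The permutation p of the ratio of SWEET10a to SWEET10b was 0.00247 to 0.00604 over left-out libraries, and 67 of its recomputed values kept their sign and side. The other 2 changed sign, both in the log2 ratio difference of GmNFYA from the wild type, which ranged from -0.0368 to 0.0424 and was -0.0099 without GmNFYA library 1 and lowest without wild-type library 1. Same-numbered libraries did not vary together throughout the genotypes (correlations -0.498 to 0.418 over 18 pairs, 5 of 12 libraries closest to their own number). Of the 18 pairs, 7 had a correlation over 0.1, and those of GmNFYA with the wild type were 0.418, 0.298 and 0.019. The numbers were not taken as pairs. With the replicate block the ratio's permutation p was 0.0122, and the calls of SBP2 (edgeR adjusted p = 0.0637) and STP1 (0.0552) were lost. Of the values of the other SWEET and sugar genes, 264 kept their call and 48 lost it.

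Counts of genes called depended more on the tool, and the cause was not tested. DESeq2 called 1296, 1194 and 1012 genes in the GmZF351, GmZF392 and GmNFYA overexpressors against the wild type, where edgeR called 744, 752 and 536. It called 359, 954 and 705 in GmZF392 over GmZF351, GmNFYA over GmZF351 and GmNFYA over GmZF392 (edgeR 137, 376 and 364), and 2360 over all 4 genotypes (edgeR 1152). Exon-length offsets gave 1280 (GmZF351 over wild type), 1153 (GmZF392 over wild type), 236 (GmZF392 over GmZF351), 722 (GmNFYA over GmZF351) and 1831 (all genotypes). With only the libraries compared, which leaves fewer samples to estimate the spread, 368 (GmZF351 over wild type), 69 (GmZF392 over GmZF351) and 123 (GmNFYA over GmZF351) were called. Leaving out 1 library gave 392 to 575, 448 to 606 and 300 to 385 against the wild type, 64 to 112, 163 to 368 and 198 to 273 between overexpressors in the order above, and 745 to 1157 over all genotypes. Size factors moved the median of all genes by at most 0.0075 (log2). The ratios that involve SWEET15a or SWEET15b gave no value under any alternative. Depth limits statements on these 2 genes to the count limits given.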
